A study of Mus musculus with 150 samples.

Results

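This account covers the lungs of male C57BL/6 mice without the enzyme CYP2F2, genotype CYP2F2(-/-) and called KO, that had inhaled styrene or air for 104 weeks. The members were all arrays whose title gives KO and 104 weeks, 11 of the 150 arrays of the series. Of these, 5 came from mice given 120 ppm styrene and 6 from mice given air (0 ppm), each array holding RNA of 1 whole lung, so replicates were separate animals. Exposure ran for 6 hours a day on 5 days a week. The treatment text of the labels names 1 or 4 weeks of exposure, whereas titles and series design give 104 weeks, which was followed here. Both groups carried the deletion, were labelled adult and were bought from the same supplier, and the labels describe neither the deletion nor how the line was made. The air-exposed mouse of replicate 6 had a tumour note in its label, and tumour tissue was not assayed apart from the rest of the lung. The other lines served for comparison at 104 weeks: wild type C57BL/6 mice (WT, 4 air and 5 styrene), the line labelled CYP2F2(-/-),2F1,SA13,2B6 transgenic (TG, 5 air and 6 styrene), which shares the deletion and whose transgene promoter is not given in the labels, and CD-1 mice (7 air and 10 styrene). Tumour notes were also in the labels of 1 WT air, 1 TG styrene, 2 CD-1 air and 5 CD-1 styrene mice at 104 weeks. KO mice at 26 weeks (5 air, 4 styrene) and 52 weeks (5 air, 5 styrene) gave the earlier KO effects. KO mice at 78 weeks (4 air, 5 styrene) were also in the series but were left out of that test. Mice of other lines at 78 weeks appear below where named.

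Styrene is a solvent and plastic monomer. In mouse lung, cytochrome P450 enzymes, with CYP2F2 of the club cells foremost, oxidise it to reactive products such as styrene oxide, which epoxide hydrolase and glutathione transferases then clear. Mice without CYP2F2 are used to ask which effects of inhaled styrene need oxidation by that enzyme. The comparison here is of styrene with air in KO lungs, in which other cytochrome P450 enzymes remain.

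Dose and array plate largely coincided. From the well labels, all 6 air arrays lay on plate 3, styrene replicates 1 to 3 lay on plate 4, and replicates 4 and 5 lay on plate 3 or 4. A main axis of difference between mice of the same group, the first principal component of the deviations in the 102 arrays up to 78 weeks (23.7% of their variance), was scored on the 104-week arrays in SD units of within-group spread. Air arrays scored from -1.53 to 0.54 (-0.47 ± 0.74, SD, n = 6). Styrene replicates 1 to 4 scored 3.85, 2.07, 3.53 and 2.30, all above the air arrays, and replicate 5 scored -0.43, inside the air range. The groups differed by 2.73 (exact permutation test over the 462 splits of 11 arrays, two-sided p = 0.0108, where the smallest possible is 0.00433), and the axis loadings and the KO differences correlated at r = 0.86 across 15695 genes, which are not independent replicates. WT styrene arrays, all on plate 4, scored 2.17 to 3.49, whereas the 4 TG styrene arrays on plate 4 scored -1.18 to 0.53. Values on this axis and values of the plates thus stand beside the results below, and how far either takes part in a difference was not tested.

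**Figure D1:**
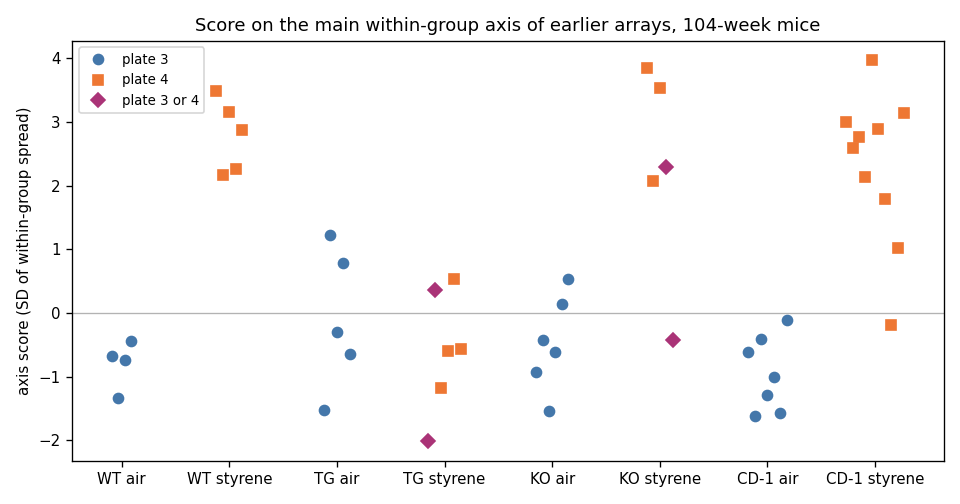
Score of each 104-week array on the main axis of within-group difference (vertical, in SD units), by line and exposure (horizontal), with 1 symbol per mouse and the symbol giving the plate. KO styrene replicates 1 to 4 lie at 2.07 or higher, replicate 5 lies at -0.43 among the KO air arrays, and the TG styrene arrays on plate 4 lie between -1.18 and 0.53.

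The targeted gene was checked first. Cyp2f2 was at 11.98, 12.14 and 12.30 (lowest, median and highest log2 intensity) in KO air and at 11.95, 12.09, 12.25, 12.16 and 12.04 in styrene replicates 1 to 5. The groups overlapped, and the difference of -0.06 ± 0.11 was not called (adjusted p = 0.69). Over all weeks the 39 KO arrays spanned 11.69 to 12.55 and the 31 WT arrays 12.95 to 13.53 without overlap, so the probe set was dimmer in the deleted line but far from dark, and where its probes lie relative to the deletion is not known here. The lung markers Scgb1a1 (secretoglobin of club cells), Sftpc (surfactant protein C of alveolar type 2 cells) and Ager (alveolar type 1 cells) had medians of 13.8, 13.8 and 13.5 in KO air and of 13.8, 13.9 and 13.5 in KO styrene. Styrene replicate 5 also stood apart in Pttg1, the securin gene. It was at 8.36, 8.62 and 8.91 in air and at 9.07, 8.84, 8.94, 8.78 and 11.37 in styrene, so that replicate 5 alone was bright. The difference of 0.78 ± 0.36 was not called (adjusted p = 0.0764), and KO mice above 11 occurred in both exposures at 26 weeks as well.

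A gene was called where its adjusted p from limma was under 0.05. In all, 6176 of 15695 genes (39.4%) were called, 3753 higher (23.9%) and 2423 lower (15.4%) with styrene. The median difference over all genes was 0.11 (log2), over genes called higher 0.39 and over genes called lower -0.66. Differences past 2-fold were rarer upward, at 9 genes, than downward, at 347. Styrene replicate 5 lay inside the air range in 69.3% of the genes called higher and 81.4% of those called lower, and without it 7410 genes (47.2%) were called, 4555 of them higher (29%). In 773 genes (4.93%) all 5 styrene arrays lay above all 6 air arrays, and in 192 (1.22%) all lay below, 965 (6.15%) together. With a term for plate 4, with the axis as a covariate, or with styrene replicates 4 and 5 alone against air, limma called no gene, while 1979 (open KO arrays put on plate 3) and 3088 (open TG arrays put on plate 3), 1541 and 2009 genes had an unadjusted p under 0.05. With the open KO arrays on plate 3, only KO styrene arrays set the plate 4 term. Its differences then equal those with replicates 4 and 5 alone, so they are not separate checks. With the open TG arrays on plate 3, the term rests on 4 TG styrene arrays against 2. Calls below are from the fit without the plate 4 and axis terms, in which dose and plate 4 cannot be told apart. In whole lung, fewer cells of a type and less RNA per cell cannot be told apart either.

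Genes of platelets and megakaryocytes held many of the highest differences. Platelets are shed by megakaryocytes, some of which reside in the mouse lung, and they carry adhesion receptors for von Willebrand factor, fibrinogen and collagen on their surface. Of the 15 genes with the highest called differences, 8 belonged to a list of 39 such genes, which was assembled after their values were seen and so lends its direction no independent weight. Of its 32 members tested, 16 were higher (50%, where 23.9% of all genes were), 1 was lower and 15 were not called, with a median difference of 0.41 against 0.11 over all genes. The mean level of the 32 was 6.46 to 6.85 in air and 6.86 to 7.21 in styrene, highest in replicate 5. In 12 of the 32 (37.5%, against 4.93% of all genes), all styrene arrays lay above all air arrays. The mean log2 intensity of these 12 genes was 6.11 to 6.60 in air (median 6.45) and 7.53, 7.21, 7.20, 7.42 and 7.39 in styrene replicates 1 to 5. The 12 were chosen as genes in which every styrene array exceeds air, so that replicate 5 lies above air in them by the choice, and the values are a description.

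GATA1 and ETS family factors are the known regulators of megakaryocyte genes, and their motifs were searched upstream of these genes. Of the 6 surface receptors among the 12, the 4 that hold a motif are shown, picked for holding one, and the other two, Gp1bb and Treml1, hold neither. Each is the 250 bases before the RefSeq start (GRCm38.p6), 5′ to 3′ on the gene's strand, with capitals for motif letters on either strand. A motif of the GATA factors was searched as AGATAA. For the ETS factors the search used the letters GGAAGT.
Gp5, chr16:30310782-30311031, minus strand: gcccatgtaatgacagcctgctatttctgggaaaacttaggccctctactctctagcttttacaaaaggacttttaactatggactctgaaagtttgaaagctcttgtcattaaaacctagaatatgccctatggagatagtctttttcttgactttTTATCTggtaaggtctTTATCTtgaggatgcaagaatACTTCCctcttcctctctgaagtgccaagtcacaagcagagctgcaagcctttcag
P2rx1, chr11:72998895-72999144, plus strand: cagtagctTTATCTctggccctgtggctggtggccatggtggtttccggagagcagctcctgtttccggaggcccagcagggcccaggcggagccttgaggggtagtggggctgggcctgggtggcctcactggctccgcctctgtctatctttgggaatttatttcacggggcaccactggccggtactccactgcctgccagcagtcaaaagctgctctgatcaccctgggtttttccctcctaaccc
Itga2b, chr11:102469884-102470133, minus strand: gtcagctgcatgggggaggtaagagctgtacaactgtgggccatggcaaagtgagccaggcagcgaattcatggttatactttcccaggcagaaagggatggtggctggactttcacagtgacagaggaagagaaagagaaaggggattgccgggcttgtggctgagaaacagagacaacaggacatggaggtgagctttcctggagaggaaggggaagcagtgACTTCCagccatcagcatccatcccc
Gp9, chr6:87777820-87778069, plus strand: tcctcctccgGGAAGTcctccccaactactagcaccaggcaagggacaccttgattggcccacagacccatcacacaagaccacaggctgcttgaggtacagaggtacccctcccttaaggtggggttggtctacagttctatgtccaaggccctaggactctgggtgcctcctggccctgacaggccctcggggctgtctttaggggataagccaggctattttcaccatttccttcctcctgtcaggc
Promoters were matched for 10 of the 12 genes. AGATAA occurred in 2 of the 10 (Gp5 with 2 matches, P2rx1 with 1) and in 6.94% of the windows of 12527 tested genes, and GGAAGT in 4 of the 10 (Gp5, Itga2b, Gp9, Zfpm1) and in 22% of those windows. A match is a string of letters and does not show binding, and 10 windows allow no statement on frequency.

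Among the receptors, Treml1, a receptor stored in platelet granules, had the highest called difference of all genes. It was at 5.53, 6.06 and 6.35 in air (lowest, median, highest) and 7.55, 6.96, 6.90, 7.43 and 7.24 in styrene, with no overlap, a difference of 1.21 ± 0.29 (adjusted p = 0.000716), which is 2.31-fold. Gp1bb, Gp5 and Gp9 are among the subunits of the receptor for von Willebrand factor, which is not described here as a whole. Gp5 was at 6.47, 6.80 and 6.90 in air and 7.66, 7.75, 7.77, 7.75 and 8.02 in styrene, highest in replicate 5, and differed by 1.03 ± 0.23 (adjusted p = 0.000316). Gp1bb was at 7.46, 8.01 and 8.27 and 9.62, 8.72, 8.55, 9.06 and 9.28, a difference of 1.08 ± 0.33 (adjusted p = 0.00729), and Gp9 differed by 0.97 ± 0.27 (adjusted p = 0.00315). In all 3 of these subunits the groups stayed apart. The fibrinogen receptor consists of Itga2b and Itgb3. Itga2b was at 6.19, 6.42 and 6.77 in air and 7.46, 7.40, 7.15, 7.57 and 7.64 in styrene (0.99 ± 0.24, adjusted p = 0.000827), without overlap, and Itgb3, also expressed outside platelets, differed by 0.66 ± 0.17 (adjusted p = 0.00151) with styrene replicate 3 inside the air range. P2rx1, an ATP-gated channel of platelets, differed by 0.84 ± 0.18 (adjusted p = 0.000237). Of the receptors that were not called, the collagen receptor Gp6 differed by 0.34 ± 0.18 (adjusted p = 0.112) and the podoplanin receptor Clec1b by 0.18 ± 0.29 (adjusted p = 0.641).

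Both transporters of platelets described here were higher by like amounts. Mfsd2b, which exports sphingosine 1-phosphate from platelets and red cells, was at 4.03, 4.25 and 4.57 in air and 5.53, 5.37, 5.75, 5.50 and 5.14 in styrene (1.18 ± 0.21, adjusted p = 3.12e-05). Slc6a4, the serotonin transporter, was at 5.71, 5.79 and 6.39 and 7.26, 7.08, 6.65, 7.31 and 7.09 (1.17 ± 0.22, adjusted p = 4.11e-05). In both, every styrene array exceeded every air array. Of the transcription factors, Gata1, which drives megakaryocyte and red cell genes, was at 4.36, 4.60 and 4.66 in air and 5.34, 5.24, 5.41, 5.25 and 5.17 in styrene (0.72 ± 0.14, adjusted p = 0.000117). Nfe2, needed for platelet release, differed by 0.97 ± 0.26 (adjusted p = 0.00209) and Zfpm1, the GATA1 partner FOG1, by 0.58 ± 0.15 (adjusted p = 0.00112), both with the groups apart. Runx1, a factor of megakaryocytes and many other blood cells, went the other way: it was at 7.53, 7.88 and 8.17 in air and 6.49, 7.07, 7.13, 7.26 and 7.43 in styrene, all 5 below air, a difference of -0.76 ± 0.13 (adjusted p = 1.61e-05). The granule genes were less uniform. Selp and Vwf, both also made by endothelium, were called higher by 0.41 ± 0.17 (adjusted p = 0.0486) and 0.42 ± 0.16 (adjusted p = 0.0237), whereas the platelet chemokines Pf4 and Ppbp, at 9.17, 9.35 and 9.88 and 10.01, 10.48 and 10.80 in air, differed by 0.41 ± 0.21 (adjusted p = 0.105) and 0.15 ± 0.28 (adjusted p = 0.702), not called. None of 8 red blood cell genes tested was called by limma, where 39.4% of all genes were, and 0 had an unadjusted p under 0.05. Their median difference was 0.03, with mean levels of 7.74 to 8.19 in air and 7.72 to 8.16 in styrene.

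**Figure D2:**
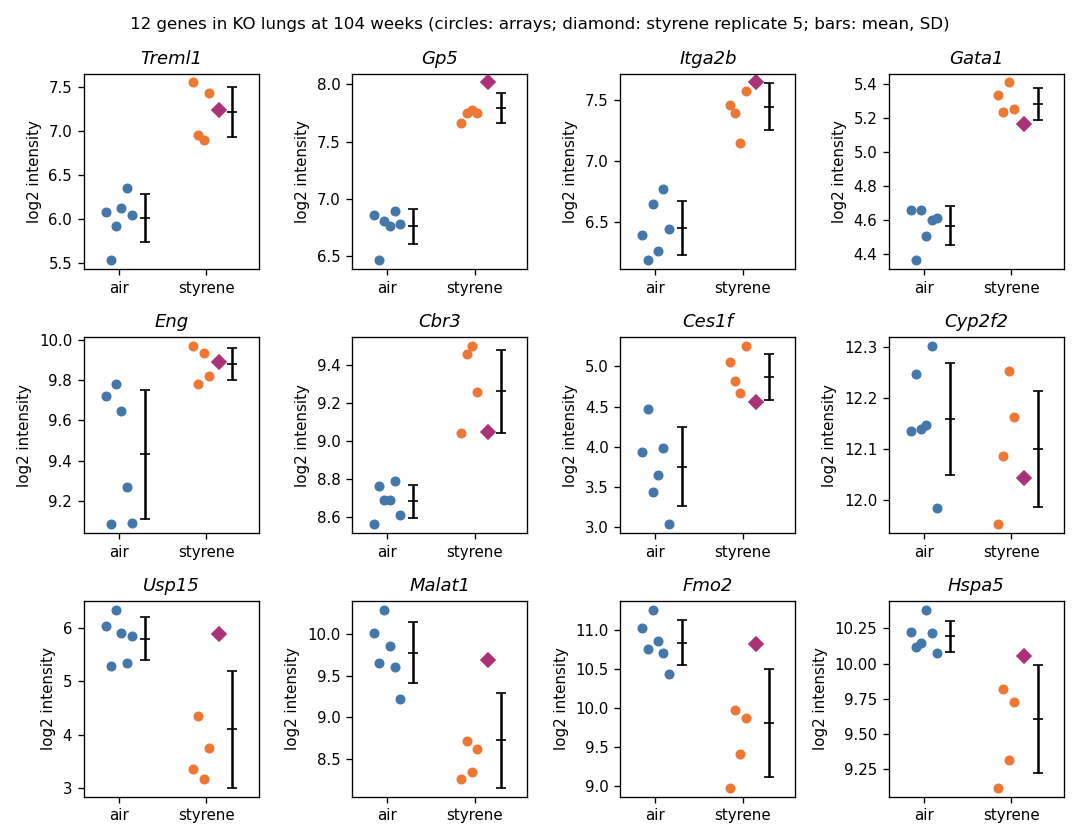
Log2 intensity (vertical) of 12 genes in the 6 air and 5 styrene arrays of KO mice at 104 weeks, with circles for arrays, a diamond for styrene replicate 5 and bars for mean and SD. In Treml1, Gp5, Itga2b, Gata1, Eng, Cbr3 and Ces1f the diamond lies above the air arrays, and in Usp15, Malat1 and Fmo2 it lies among them.

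The same 12 genes were followed in the other lines. Their differences ran from 0.42 to 1.21 in KO, 0.15 to 0.62 in WT, -0.18 to 0.30 in TG and 0.36 to 0.95 in CD-1, and 12, 2, 0 and 12 of them were called, all higher, where 23.9%, 29.6%, 0% and 42.8% of all genes were called higher (in CD-1, 63.6% in either direction). The 12 were chosen on the KO values, so their KO count was fixed by the choice, and no test that sets these KO values against another line or time is given. At 26 and 52 weeks in KO mice their differences lay between -0.46 and 0.24. With styrene replicates 4 and 5 alone, their differences ran from 0.37 to 1.33 (median 1.07), with the axis as a covariate from 0.24 to 1.17 (median 0.84), and with a plate 4 term and the open TG arrays on plate 3 from 0.05 to 0.86 (median 0.47), none called in any of the 3. The smallest adjusted p of the 12 in these fits was 0.0613, 0.0708 and 0.218.

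**Figure D3:**
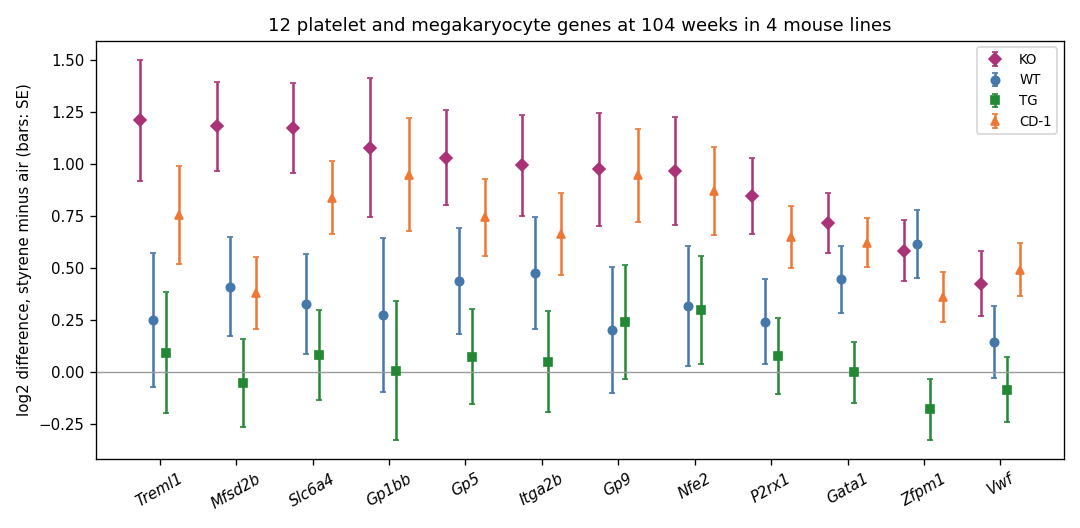
Log2 difference, styrene minus air at 104 weeks (vertical), of 12 platelet and megakaryocyte genes in KO, WT, TG and CD-1 mice, with bars for the SE of the limma fit. KO values run from 0.42 to 1.21 and TG values from -0.18 to 0.30.

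The remaining genes among the 15 highest were Ces1f, described below, Hpcal4 (a neuronal calcium sensor, 1.07 ± 0.32), Rasd2 (a small GTPase, 1.04 ± 0.25), Pcdh1 (a protocadherin of airway epithelium, 1.01 ± 0.20), Tmem40 (0.99 ± 0.24), Galnt10 (a mucin-type glycosyltransferase, 0.95 ± 0.17) and the histone gene H3c15 (0.94 ± 0.24). Pcdh1 was at 5.53, 5.86 and 6.12 in air and 6.87, 6.62, 7.31, 7.04 and 6.41 in styrene (adjusted p = 6.86e-05), without overlap. In 14 of the 15 the groups were apart, and H3c15, at 4.34, 5.25 and 5.99 and 6.28, 6.03, 6.53, 6.16 and 5.98, was the exception, with replicate 5 inside the air range. Of the 15, 14 were also called higher in CD-1, where 42.8% of all genes were, and 3 in WT, where 29.6% were.

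Endothelial markers differed by smaller amounts, and how many were called depended on single arrays. Endothelial cells line the lung's capillaries and vessels, and Vwf is shared between the endothelial and the platelet list. Of 15 markers tested, 7 were called higher (46.7% against 23.9% over all genes) and 0 lower, with a median of 0.33. In 6 of the 15 all styrene arrays lay above all air arrays, where 4.93% of all genes did so. The count was 1 without air replicate 5 or styrene replicate 3, 2 without air replicate 6, 4 without air replicate 2 or 3 or styrene replicate 1, 2 or 4, and 8 without styrene replicate 5. Tie1, a receptor of endothelial cells, was at 7.79, 8.24 and 8.32 in air and 8.83, 8.60, 8.75, 8.56 and 8.46 in styrene (0.48 ± 0.16, adjusted p = 0.0115). Eng (endoglin, a co-receptor for TGF-beta) was at 9.09, 9.46 and 9.78 and 9.97, 9.78, 9.94, 9.82 and 9.89 (0.45 ± 0.17, adjusted p = 0.0287), and in both every styrene array exceeded the air arrays. Egfl7 (secreted by endothelium, 0.36 ± 0.14), Cldn5 (tight junctions, 0.38 ± 0.16) and Sox17 (an arterial factor, 0.39 ± 0.16) were called with adjusted p of 0.0369, 0.0423 and 0.0456 by limma. Ramp2, of the adrenomedullin receptor, was outside the rule for named genes and is given as the last of the 7, at 0.33 ± 0.14 (adjusted p = 0.0499). It turned to -0.80 with the mean of its 3 probe sets, so its probe sets disagree. With quantile normalisation 3 of the 15 were called higher, and without the arrays of open plate 3 were higher and 1 was lower. The markers' mean level was 9.43 to 9.84 in air and 9.75 to 9.96 in styrene. Medians of the list were 0.07 in WT, -0.05 in TG and -0.01 in CD-1. Flt4, a lymphatic endothelial receptor, was also higher (0.58 ± 0.12, adjusted p = 0.000141), the only one called of 10 lymphatic and mesothelial markers. Of 13 fibroblast and smooth muscle markers, Notch3 (0.56 ± 0.15), Pdgfrb (0.51 ± 0.16) and Des (0.46 ± 0.16), genes of pericytes and smooth muscle, were called higher and Dcn (decorin of fibroblasts, -0.80 ± 0.25) lower, and with 1 array left out the count of higher ones ran from 1 to 6. The share of higher ones, 23.1%, was like the 23.9% over all genes.

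The enzymes that handle styrene and its products were called no more often than genes at large. Of 21 cytochrome P450 genes tested, Cyp2d22 (0.47 ± 0.17, adjusted p = 0.0206) and Cyp27a1 (0.38 ± 0.14, adjusted p = 0.0254) were higher and Cyp1b1 (-0.89 ± 0.24, adjusted p = 0.0027) lower. Cyp2e1, another enzyme that oxidises styrene, was at 5.82, 6.44 and 7.74 in air and 5.83, 7.26, 7.12, 7.85 and 6.50 in styrene, overlapping widely (0.42 ± 0.44, adjusted p = 0.452). Of 23 epoxide and conjugation enzymes, 5 were higher (21.7% against 23.9% over all genes) and 2 lower (8.70% against 15.4%), so neither share exceeded that over all genes. The count of higher ones was 3 without air replicate 1 or 3, 2 without styrene replicate 1 and 1 without styrene replicate 3. Ephx1, the microsomal epoxide hydrolase that opens styrene oxide, was at 10.32, 10.38 and 10.49 in air and 10.73, 10.68, 10.88, 10.89 and 10.35 in styrene (0.31 ± 0.11, adjusted p = 0.0209), with replicates 1 to 4 above air and replicate 5 inside it. Glutathione transferases Gstt2 (0.41 ± 0.14), Mgst3 (0.31 ± 0.12) and Gstt1 (0.30 ± 0.13) and the flavin monooxygenase Fmo5 (0.45 ± 0.14) completed the higher ones. Fmo2, the main flavin monooxygenase of lung, was at 10.43, 10.81 and 11.26 in air and 8.98, 9.97, 9.41, 9.88 and 10.82 in styrene (-1.03 ± 0.24, adjusted p = 0.000482), and Sult1d1, a sulfotransferase, differed by -1.27 ± 0.43 (adjusted p = 0.0145). In both, replicate 5 was inside the air range and the other 4 below it.

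Targets of Nrf2, the factor that raises antioxidant enzymes when electrophiles are present, were higher in part. Of 23 tested, 9 were called higher (39.1% against 23.9% over all genes) and 0 lower, with a median of 0.21. The count was 5 of 23 without styrene replicate 2, where 3386 of 15695 genes were higher, and 6 with the 11 KO arrays alone, where 2143 were. The former is a share like that over all genes. Cbr3, a carbonyl reductase, was at 8.56, 8.69 and 8.79 in air and 9.04, 9.46, 9.50, 9.26 and 9.05 in styrene, apart in every array (0.58 ± 0.13, adjusted p = 0.000471). Srxn1 (sulfiredoxin, 0.42 ± 0.13, adjusted p = 0.00521) was also apart, and Osgin1 (0.57 ± 0.17), Gpx2 (a glutathione peroxidase, 0.64 ± 0.22), Taldo1 (0.30 ± 0.08) and Pgd (0.30 ± 0.10), the latter a pair of pentose phosphate enzymes, were called. Nqo1, a quinone reductase outside the naming rule and chosen after its values were seen, was at 4.96, 5.43 and 5.66 and 5.70, 6.02, 6.25, 5.95 and 5.66 (0.53 ± 0.21, adjusted p = 0.0318), with replicate 5 just above the highest air array. The same genes differed in WT by 1.28 ± 0.15 for Cbr3 and 1.46 ± 0.23 for Nqo1, and the KO effect minus the WT effect was -0.70 ± 0.20 (adjusted p = 0.189) and -0.93 ± 0.31 (adjusted p = 0.306), not called. Hmox1, Gclm and Txnrd1 were among the 14 not called. The letters TGACNNNGC of the antioxidant response element, on either strand, were in the 250-base windows of 0 of 8 of the higher targets and of 11.8% of the tested genes, which says only that these letters are not in those windows.

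The genes listed from earlier results of these data as responders to styrene when CYP2F2 is present were taken in turn, Ces1f first. Ces1f, a carboxylesterase, was at 3.04, 3.79 and 4.47 in air and 5.06, 4.82, 4.67, 5.25 and 4.55 in styrene with no overlap (1.12 ± 0.31, adjusted p = 0.00305), and its KO difference was 1.19 at 26 and 0.49 at 52 weeks, where it was not called. Its lowest KO air value lay at the filter level of those arrays (3.04 to 3.12). In WT, Ces1f was brighter and did not rise at each week. WT means in air and styrene were 7.02 and 5.95 at 52 weeks, 6.82 and 5.98 at 78 and 6.27 and 6.46 at 104. In CD-1 at 104 weeks the Ces1f means were 6.00 and 6.94. Ces1g, its neighbour in the family, was at 4.16, 4.30 and 4.48 in air and 4.41, 5.20, 4.89, 4.74 and 4.14 in styrene, overlapping (0.37 ± 0.27, adjusted p = 0.278). In WT Ces1g was higher by 2.74 ± 0.30, and the effects differed by -2.37 ± 0.41 (adjusted p = 0.000719), the lower of only 2 genes of 15695 (0.0127%) called between KO and WT, 1 in each direction (0.00637%). The other was Camkv, a kinase-like vesicle protein near the dim end of the arrays, at 0.87 ± 0.16 (adjusted p = 0.00359), from 0.21 ± 0.11 in KO and -0.66 ± 0.12 in WT. Serpind1, heparin cofactor II, was at 3.55, 4.37 and 5.32 in KO air and 4.21, 5.09, 5.02, 3.94 and 4.88 in KO styrene (0.20 ± 0.24, adjusted p = 0.532), against 1.74 ± 0.27 in WT. The effects differed by -1.54 ± 0.36, which missed the threshold (adjusted p = 0.0925). Asgr1, an asialoglycoprotein receptor (0.56 ± 0.38, adjusted p = 0.232), and the paraoxonase Pon1 (-0.26 ± 0.25, adjusted p = 0.43) were not called in KO, and their KO minus WT differences of 2.02 ± 0.56 and 1.38 ± 0.38 were not either (adjusted p = 0.181 and adjusted p = 0.181). Of the whole list of 16, Camk2b (0.74 ± 0.15) and Ces1f were higher and A930001A20Rik (-0.67 ± 0.17) lower. These shares, 12.5% and 6.25%, were below the 23.9% and 15.4% over all genes. The list was drawn from earlier results of these data and is not independent of them.

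**Figure D4:**
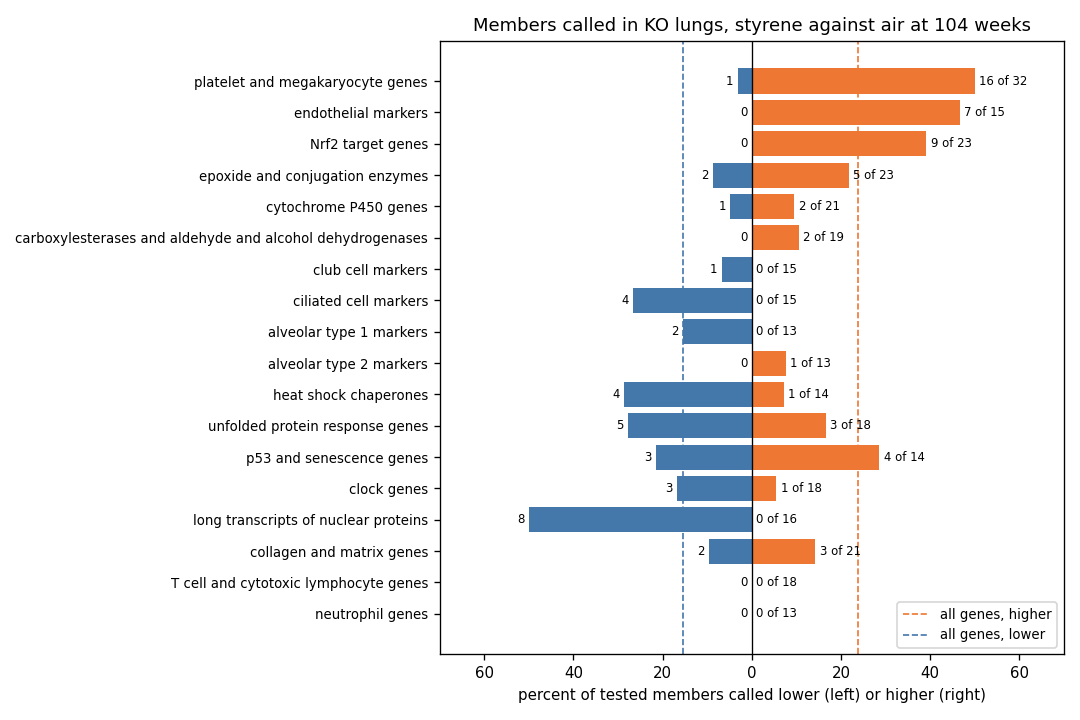
Percent of tested members called lower (left) or higher (right) with styrene in KO lungs for 18 gene lists, with counts beside the bars and dashed lines at the shares over all 15695 genes, 15.4% and 23.9%. Platelet, endothelial, Nrf2 and p53 genes extend past the line on the right. Past the line on the left lie the list named long transcripts of nuclear proteins (8 of 16) and the heat shock, unfolded protein response, ciliated, p53 and clock lists. The platelet list was assembled after the values were seen.

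Replicate 5 lay with the air arrays in the lowest called genes. In all 15 of them styrene replicates 1 to 4 lay below every air array and replicate 5 lay inside the air range. Usp15, a deubiquitinase, had the lowest difference. It was at 5.29, 5.88 and 6.34 in air and 3.36, 4.36, 3.17, 3.75 and 5.89 in styrene (-1.69 ± 0.35, adjusted p = 0.000147), and without replicate 5 it differed by -2.14. Nop58, of the small nucleolar ribonucleoproteins, was at 5.09, 6.04 and 6.62 and 4.09, 4.46, 3.64, 3.72 and 5.85 (-1.65 ± 0.34, adjusted p = 0.000142). Others of the 15 were Zc3h14 (a poly(A) binding protein, -1.60 ± 0.32), Pnisr (a splicing-related protein, -1.54 ± 0.34), Cnot6 (a deadenylase, -1.42 ± 0.27), Tet2 (a DNA demethylase, -1.42 ± 0.29), Far1 (fatty alcohol synthesis, -1.48 ± 0.29), Fpgt (-1.56 ± 0.32), Lin7c (-1.44 ± 0.27) and Efcab1 (-1.44 ± 0.34). At the cell membrane were Cxadr (the coxsackievirus and adenovirus receptor, -1.46 ± 0.29), Slc30a4 (a zinc transporter, -1.44 ± 0.27) and Slc6a14 (an amino acid transporter, -1.42 ± 0.36). Iigp1, an interferon-induced GTPase, differed by -1.44 ± 0.51 (adjusted p = 0.018) and Cxcl13, the chemokine of B cell follicles, by -1.58 ± 0.67 (adjusted p = 0.0496), whose air values spread from 6.62 to 9.07. Of the 15, 14 were also called lower in WT, where 18.3% of all genes were. With the axis as a covariate Usp15 differed by -0.31 and was not called.

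In the list named long transcripts of nuclear proteins, 8 of 16 were called lower (50% against 15.4% over all genes) and 0 higher. The list median was -0.43. Not all its members code for nuclear proteins, so the name serves only as a label. Med13, of the mediator complex, was at 6.45, 6.81 and 7.16 in air and 4.74, 5.70, 5.53, 5.50 and 6.29 in styrene, the groups apart (-1.26 ± 0.24, adjusted p = 5.83e-05). The nuclear RNA Malat1 was at 9.23, 9.76 and 10.29 and 8.26, 8.72, 8.35, 8.62 and 9.68 (-1.05 ± 0.31, adjusted p = 0.00448), with replicate 5 inside the air range, and turned to 0.21 with the axis as a covariate. Neat1 (paraspeckle RNA, -0.77 ± 0.18), Tnrc6b (microRNA silencing, -0.76 ± 0.16), Birc6 (-0.79 ± 0.17) and Prrc2c (-0.64 ± 0.17) were lower too. List medians were -0.57 in WT, -0.55 in CD-1 and 0.09 in TG.

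Chaperones split by gene, and over all genes 15.4% were lower and 23.9% higher. Of 14 heat shock chaperones, Chordc1 (-1.10 ± 0.27), Hspa4l (-1.27 ± 0.37), Dnaja1 (-1.02 ± 0.32) and Hsp90aa1 (-1.19 ± 0.41) were lower (28.6%) and the co-chaperone Bag3 (0.47 ± 0.20) higher (7.14%). Of 18 genes of the unfolded protein response, which adjusts the folding capacity of the endoplasmic reticulum, 5 were lower (27.8%) and 3 higher (16.7%). Hspa5 (BiP, the main chaperone there) was at 10.07, 10.18 and 10.38 in air and 9.12, 9.82, 9.31, 9.73 and 10.05 in styrene, all below air (-0.59 ± 0.16, adjusted p = 0.00304). Dnajc3 (-0.998 ± 0.18), Hsp90b1 (-0.76 ± 0.22), Sel1l (-0.45 ± 0.13) and Dnajb9 (-0.39 ± 0.13) were lower, while Trib3, a target of the factor CHOP, was at 4.57, 4.79 and 4.90 and 6.05, 5.84, 5.83, 5.34 and 5.05 (0.88 ± 0.22, adjusted p = 0.00104) and Hyou1 (0.38 ± 0.13) and Xbp1 (0.24 ± 0.07) were higher. Targets of p53 were as mixed, with Phlda3 (0.61 ± 0.13), Aen (0.42 ± 0.11), Bbc3 (0.41 ± 0.13) and Sesn2 (0.41 ± 0.14) higher and Ccng1 (-1.17 ± 0.25), Trp53inp1 (-1.07 ± 0.26) and Mdm2 (-0.82 ± 0.16) lower, of 14. Their shares, 28.6% higher and 21.4% lower, were near those over all genes.

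Of the clock genes, which set the daily cycle of transcription, 1 of 18 was higher (5.56%) and 3 lower (16.7%). Over all genes these shares were 23.9% and 15.4%. Clock (-0.76 ± 0.21, adjusted p = 0.00271), Rora (-0.94 ± 0.30, adjusted p = 0.00849) and Nr1d2 (-1.13 ± 0.40, adjusted p = 0.0193) were lower and the repressor Cry1 (0.48 ± 0.16, adjusted p = 0.0142) higher. Dbp, Arntl and Per2 were among the 14 not called. Dbp was at 6.61, 9.31 and 9.63 in air, where replicate 4 was the low one, and 9.74, 9.90, 9.99, 9.95 and 9.38 in styrene (0.87 ± 0.63, adjusted p = 0.273). Arntl differed by -0.55 ± 0.41 (adjusted p = 0.288) and Per2 by -0.07 ± 0.31 (adjusted p = 0.878). In WT, Dbp at 3.77 ± 0.70 and Arntl at -2.51 ± 0.46 were called. Their KO minus WT differences of -2.90 ± 0.94 and 1.96 ± 0.62 were not (adjusted p = 0.295 and adjusted p = 0.274).

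Markers of the lung's cell types were mostly not called, like genes at large, of which 23.9% were higher and 15.4% lower. Of 15 club cell markers, 1 (Fmo2) was lower, of 13 alveolar type 2 markers 1 was higher (Etv5, 0.44 ± 0.14), and of 13 alveolar type 1 markers 2 were lower (Clic5, -0.70 ± 0.21, and Akap5, -0.80 ± 0.27). Of 15 ciliated cell markers 4 were lower (26.7% against 15.4% over all genes). Rsph4a, of the radial spokes, was at 5.71, 6.31 and 6.54 in air and 3.78, 5.19, 4.57, 4.68 and 6.01 in styrene (-1.40 ± 0.31, adjusted p = 0.000272), and Dnah5 (-0.82 ± 0.25), Ccdc113 (-0.70 ± 0.22) and Mlf1 (-0.77 ± 0.29) followed. The ciliary master factor Foxj1 differed by 0.44 ± 0.24 and was not called (adjusted p = 0.135). Muc16 (-0.91 ± 0.35) was the 1 lower of 13 goblet and mucin genes. The mean level of the ciliated list was 6.63 to 7.40 in air and 6.35 to 7.13 in styrene.

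Immune lists showed few calls, where 23.9% of all genes were higher and 15.4% lower. None of 13 neutrophil, 18 T cell or 11 MHC class II genes was called by limma, with 1, 1 and 0 of them at an unadjusted p under 0.05 and medians of 0.43, -0.10 and 0.13. The macrophage receptor Mrc1 (-0.91 ± 0.35) was the 1 lower of 17 alveolar macrophage markers, and Ace (0.60 ± 0.16) the 1 higher of 13 interstitial macrophage and monocyte genes. Of 14 B cell genes Ebf1 (-0.68 ± 0.23) and Bank1 (-1.38 ± 0.55) were lower. Bank1 was at 3.95, 6.81 and 8.97 in air, a spread wider than the difference. Of 12 plasma cell genes Fkbp11 (0.74 ± 0.25), Igha (0.39 ± 0.16) and Xbp1 were higher and Prdm1 (-0.69 ± 0.20) lower, and of 17 interferon response genes Ifit1 (-0.96 ± 0.36) and Ddx58 (-0.38 ± 0.14) were lower. Ifit1 was at 4.96, 5.12, 5.09, 5.17 and 7.71 in styrene, and replicate 5, above the highest air array at 7.30, opposed the other 4. Of 21 collagen and matrix genes Col4a2 (0.37 ± 0.10), Col6a1 (0.40 ± 0.12) and Col5a1 (0.37 ± 0.14) were higher and the crosslinking enzyme Lox (-1.08 ± 0.28) and periostin, Postn (-1.05 ± 0.34), lower. The collagen and matrix shares, 14.3% higher and 9.52% lower, were below those over all genes. Among immediate-early genes Junb (0.76 ± 0.20), Jun (0.38 ± 0.14) and Ier2 (0.39 ± 0.14) were higher, of 19 (15.8%), and of 23 cell cycle genes Bub1b (0.61 ± 0.23) was (4.35%). Both shares were below that over all genes. Genes of heart (13), skeletal muscle (12) and mast cells or eosinophils (13) held no call, with 0, 0 and 1 at an unadjusted p under 0.05, and heart markers, which show adjoining tissue in a lung sample, had mean levels of 5.88 to 7.28 in air and 5.51 to 7.23 in styrene.

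The KO effect was set beside that of the other lines. In WT 7527 genes (48.0%) were called, and 4869 of the 6176 KO calls (78.8%) were called in the same direction there, which is 64.7% of the WT calls, whereas 6 were called in the opposite one. KO and WT samples are separate, but their air arrays all lay on plate 3, and the 5 WT styrene arrays lay on plate 4 with KO styrene replicates 1 to 3, and with replicates 4 and 5 only if those lay on plate 4. In TG no gene was called, with 980 at an unadjusted p under 0.05 by limma, and the genes called higher and lower in KO had TG medians of -0.05 and 0.09. The difference of the KO and TG effects was called for 3942 genes (25.1%), of which Lin7c (-2.06 ± 0.38), Tet2 (-2.06 ± 0.41), Zbtb16 (-2.06 ± 0.76), Abca5 (-1.96 ± 0.33) and Zfp281 (-1.95 ± 0.43) were lowest and Ucp1 (1.42 ± 0.50), Aoc3 (1.42 ± 0.37), Tpgs2 (1.30 ± 0.22), Rbp7 (1.26 ± 0.47) and Trdn (1.25 ± 0.36) highest. Ucp1, of brown fat, and Rbp7, a retinol binding protein, were not called in KO (0.42 ± 0.35 and 0.40 ± 0.33), and their TG differences were -1.001 ± 0.35 and -0.86 ± 0.33. Without styrene replicate 1 the count was 2482, and with the axis as a covariate 25 genes were called between KO and TG.

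**Figure D5:**
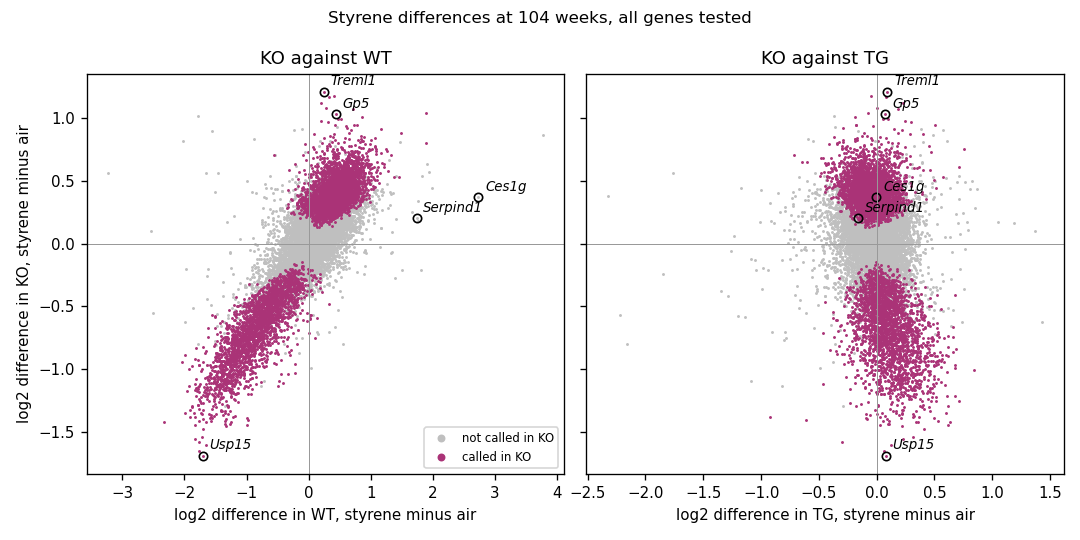
Log2 difference with styrene in KO at 104 weeks (vertical) against that in WT and in TG (horizontal), 1 point for each of 15695 genes, with genes called in KO coloured. Ces1g lies at 0.37 in KO and 2.74 in WT, and Treml1 at 1.21 in KO, 0.25 in WT and 0.09 in TG.

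Against time within KO, 5572 genes (35.5%) differed between the effect at 104 weeks and the mean effect at 26 and 52 weeks. At those weeks 0 and 2 genes were called by limma, with 363 and 767 at an unadjusted p under 0.05, on arrays of plate 1 in both exposures. The 2 at 52 weeks, named after their values were seen, were Wdfy1 (1.46) and Sec14l4 (2.09). At 78 weeks, not part of this test, limma called 0 genes, with 553 at an unadjusted p under 0.05. There the KO air arrays lay on plate 1 and the KO styrene arrays on plate 2. The lowest differences of effect were Nr1d2 (-2.11 ± 0.51), Akr1c14 (a hydroxysteroid dehydrogenase, -2.08 ± 0.47), Pnisr (-2.06 ± 0.42), Nop58 (-2.05 ± 0.43) and Usp15 (-2.02 ± 0.44). The highest were genes of neutrophils and other myeloid cells, Wfdc21 (1.63 ± 0.63), Il1b (1.59 ± 0.57), Cd300lb (1.55 ± 0.42), Clec4d (1.55 ± 0.52) and Csf3r (1.52 ± 0.54), none of them called at 104 weeks alone. Csf3r, the receptor for granulocyte colony stimulating factor, was at 5.77, 6.79 and 8.21 in air and 7.87, 8.19, 7.37, 8.23 and 7.40 in styrene, overlapping, and its earlier differences were -0.55 and -0.67. With the axis as a covariate limma called 0 genes in this comparison, with 1135 at an unadjusted p under 0.05.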

How the data were processed

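Whole-lung RNA was hybridised to Affymetrix mouse arrays, and the deposited table holds log2 intensities made by the authors, with RMA and Partek named in the submitters' processing notes (versions not given in the sources used here). Each gene was represented by its probe set of highest mean among 28898 probe sets with 1 annotated gene, and genes above an array's 30th percentile in at least 3 arrays were kept (15695 of 17097). limma 3.58.1 in R 4.3.3 fitted 31 group means and a plate 2 term to all 150 arrays. Differences are given ± SE with two-sided p-values, adjusted over all 15695 genes by Benjamini-Hochberg (threshold 0.05). The script recovered known folds in data simulated with independent noise and no axis or plate 4 effect, so this does not bear on either. Array number limits precision.

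Named genes were the 15 highest and 15 lowest called differences, the 5 highest and 5 lowest in each test of a difference of effects, up to 6 members of each list by smallest p, the clock genes and 7 single genes: Cyp2f2, Serpind1, Ces1f, Ces1g, Asgr1, Pon1 and Pttg1. Members, lists and rules were chosen with earlier results of these data known, and the platelet list was assembled after the values were seen. Replicate numbers did not pair the arrays. Alternatives varied filter, probe set rule, arrays, plate and axis terms, normalisation and replicates. Promoters and current symbols came from RefSeq (GRCm38.p6).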

Additional observations from a re-analysis of the deposited data

Results flagged for a closer look

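Of 298 sets of 5 or 6 arrays examined, 20 (6.71%) had an array set apart from the others of its group at Dixon's 95% level, and chance marks about 1 in 20 groups. Styrene replicate 5 made up 9 of the 20. It was the highest styrene array in Iigp1 (7.381), Pttg1 (11.37), Hsp90aa1 (9.11), Ccng1 (7.718) and Ifit1 (7.709), and the lowest in Cyp2d22 (7.743), Junb (6.645), Sesn2 (6.245) and Col5a1 (6.668). Air replicate 6, the mouse with the tumour note, made up 7, being lowest in Efcab1 (5.401), Cyp2d22 (7.075), Sult1d1 (7.055) and Pdgfrb (5.842) and highest in Flt4 (4.097), Gp6 (4.856) and Ddx58 (7.442). The others were Gp5 in air replicate 2 (6.465, lowest), Pf4 (9.881, highest) and Tie1 (7.79, lowest) in air replicate 5 and Dbp in air replicate 4 (6.613, lowest).

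The exposure effect differed between groups, by the test of the difference, for 2 genes between KO and WT, 3942 between KO and TG and 5572 between KO at 104 weeks and at 26 and 52 weeks. Between KO and WT these were Ces1g (-2.37) and Camkv (0.87). Between KO and TG the lowest were Zbtb16 (-2.06), Lin7c (-2.06), Tet2 (-2.06), Abca5 (-1.96) and Zfp281 (-1.95), and the highest Ucp1 (1.42), Aoc3 (1.42), Tpgs2 (1.29), Rbp7 (1.26) and Trdn (1.25). Against the earlier weeks the lowest were Nr1d2 (-2.11), Akr1c14 (-2.08), Pnisr (-2.06), Nop58 (-2.05) and Usp15 (-2.02), and the highest Wfdc21 (1.63), Il1b (1.59), Cd300lb (1.55), Clec4d (1.55) and Csf3r (1.52).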

How the results depend on the processing

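The count of 6176 called genes lay between 4119 and 7410 when each KO array was left out in turn, and at 3823 with the 11 KO arrays alone. It was 0 with a plate 4 term in either placing of the open arrays, with the axis as a covariate and with styrene replicates 4 and 5 alone, the last chosen after seeing the data. The last gives the same differences as the plate 4 term with the open KO arrays on plate 3, so they are not separate checks. The cause of the lost calls was not tested. The count for KO minus TG (3942) ranged from 2482 (without styrene replicate 1) to 5581 over the arrays left out, and was 25 with the axis covariate. The count against the earlier weeks (5572) ranged from 3904 to 6844. It was 0 with the axis covariate and with the plate 4 term that puts the open KO arrays on plate 3 (2704 at an unadjusted p under 0.05), and 43 with the open TG arrays there. The count for KO minus WT (2) ranged from 2 to 5, the 5 without air replicate 3 or without styrene replicate 1. It was 1 with the stricter filter, 20 with the C57BL/6 lines alone, 7 without the arrays of open plate, 7 with the open KO arrays on plate 3 and 4 without the tumour-labelled mice. Other settings kept the counts within 1.5 times.

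Replicate numbers did not pair the arrays: same-numbered air and styrene arrays correlated at -0.11, 0.10, -0.33, 0.17 and -0.28. With the replicate number as a block 6343 genes were called, and endothelial markers called higher went from 7 to 2.

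Of 170 gene values under 11 settings that each left out an array, 1650 kept direction and side of the threshold, 212 lost the call, 4 gained it and 4 turned. Per2 ranged from -0.254 (without air replicate 4) to 0.0412 (without air replicate 3) and was 0.0163 without styrene replicate 1. Ppbp ranged from -0.0231 (without styrene replicate 5) to 0.331 (without styrene replicate 3), and Clec1b from -0.00029 to 0.369 without the same arrays. With the mean of probe sets Ramp2 was at -0.80 and Per2 at 0.0274. With the open KO arrays on plate 3, and with styrene replicates 4 and 5 alone, Serpind1 was at -0.0182. With the open TG arrays on plate 3, Serpind1 was at -0.15, Pf4 at -0.0942, Ppbp at -0.29, Cry1 at -0.10, Arntl at 1.06, Dbp at -0.81, Cyp2e1 at -0.19, Camkv at -0.0276 and Clec1b at -0.54. Without the arrays of open plate Ppbp was at -0.14 and Clec1b at -0.0758. With the axis covariate Serpind1 was at -0.0780, Slc6a14 at 0.0560, Pon1 at 0.27, Malat1 at 0.21, Hspa4l at 0.0731, Hsp90aa1 at 0.32, Hsp90b1 at 0.0774, Clock at 0.0343, Rora at 0.24, Nr1d2 at 0.0113, Dnah5 at 0.0543, Mlf1 at 0.0247, Clic5 at 0.11, Akap5 at 0.14, Postn at 0.41, Ifit1 at 0.0505 and Ddx58 at 0.0070.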

Other observations

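Groups of genes sharing a name stem, looked at after the values were seen and given as a description, moved unevenly in KO lungs. Of 46 genes of the large subunit of the mitochondrial ribosome (Mrpl), 25 were called higher and 1 lower, with a median of 0.23. Of 34 RNA-binding motif genes (Rbm), 6 were higher and 12 lower, with a median of -0.15, and of 31 DEAD-box helicases (Ddx), 5 were higher and 12 lower, with a median of -0.09. Over all genes 23.9% were higher and 15.4% lower. Calls also varied with signal. Among the dimmest 5232 genes 13.9% were higher and 2.27% lower, and among the brightest 5232 these shares were 28.7% and 23.1%.

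The mean of the 12 platelet genes was not high in styrene-exposed KO lungs alone. At 78 weeks it was 6.90 to 7.69 in the 3 TG styrene arrays (7.27 ± 0.40, SD, n = 3), all on plate 2, and 6.08 to 6.56 in the 5 TG air arrays (6.36 ± 0.18, SD, n = 5), all on plate 1, without overlap, and 1 WT styrene array reached 7.35. It also reached 7.55 in 1 KO air array at 52 weeks and 7.40 in 1 TG air array at 104 weeks, within or above the range of 7.20 to 7.53 of the KO styrene arrays.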
